A study of Rattus norvegicus with 24 samples.

Results

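The Htr2c host-gene miRNAs are the mature miRNAs cut from hairpins that lie inside Htr2c, the gene of the serotonin 2C receptor, on the rat X chromosome. They are listed by name, in a rule that uses no measured value but was drawn up with earlier results of these data known, as miR-1298, miR-448-3p, miR-448-5p, miR-764-5p, miR-764-3p and miR-1912-3p. All 6 were found among the 1098 miRNAs of the count table, of which 703 are known rat miRNAs and 395 are predicted ones. Each had at least 6 reads in each of the 24 libraries, and none had the same counts as another miRNA.

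Small RNA was sequenced from the paraventricular nucleus of the hypothalamus (PVN), which holds the neurons that start the hormonal stress response, and from the central nucleus of the amygdala (CEA), a hub of emotional and autonomic control. There were 8 groups of 3 libraries each, 4 treatments in both nuclei. Male Sprague–Dawley rats, 7 weeks old at purchase, were normal controls (NC), underwent removal of about 20% of the left liver lobe (HT), or had this surgery together with electroacupuncture (HT + EA) or sham electroacupuncture (HT + SEA). EA alternated 2 and 15 Hz for 30 min at the Zusanli and Sanyinjiao points on the hind limb, before and after surgery, and SEA rats had the needles placed but not connected. Rats of all 4 groups were held in a restraint device for the same time, with brains collected 24 h after the final session. The methods state that the brain samples were of one batch but not of one animal, and do not say which library came from which rat.

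Intronic miRNAs are usually transcribed with their host gene, after which each hairpin is cut out and processed into a 5p and a 3p strand, of which one is often kept and the other degraded. A miRNA recognizes its targets mainly through its seed, bases 2 to 8 from its 5′ end. Htr2c is a neuronal receptor gene that acts in appetite, mood and stress circuits, and its transcript is particularly abundant in the epithelium of the choroid plexus. The Htr2c transcript itself was not analysed here.

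The 5 members with a mature sequence in RefSeq are shown first because they do not form a seed family, so that neighbours within one gene carry different targeting sequences. Each is written 5′ to 3′ with bases 2 to 8 in capitals.
rno-miR-764-3p: gAGGAGGCcauaguggcaacugu
rno-miR-1912-3p: cACAGAACaugcagugaga
rno-miR-1298: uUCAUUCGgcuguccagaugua
rno-miR-448-5p: aACAUCCUgcauagugcugcca
rno-miR-448-3p: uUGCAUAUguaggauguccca
The 5 seeds all differ, and no other of the 637 miRNAs of the table with a RefSeq sequence had the same bases 2 to 8 as any of them. miR-448-3p shared bases 2 to 7 with miR-153-3p, a neuronal miRNA, but not base 8.

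In RefSeq's annotation of the GRCr8 assembly the hairpins lie on the plus strand, the strand of Htr2c, in the order miR-764 (chrX:115490638-115490745), miR-1912 (chrX:115498019-115498106), miR-1298 (chrX:115556947-115557085) and miR-448 (chrX:115641955-115642066). Between the miR-764 and miR-1912 hairpins lie 7273 bases, between miR-1912 and miR-1298 58840 bases, and between miR-1298 and miR-448 84869 bases. One more hairpin in the span, that of miR-3552, lies 1774 bases before the miR-764 hairpin. miR-3552 was not among the members and was looked at after their values were seen.

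Totals ran from 6584345 to 14828269 counted reads in PVN libraries and from 9463321 to 14913564 in CEA libraries. Levels are given as CPM, the reads of a miRNA scaled to the library total. The detection floor was set at 3 reads, or 0.201 to 0.456 CPM, a limit that covers counting error only. The labelled nuclei carried different miRNAs: miR-7a-5p and miR-7b, which are abundant in the neuroendocrine hypothalamus, summed to between 134819 and 170491 CPM in the PVN and between 24805 and 54279 CPM in the CEA. In bulk tissue, fewer cells of a type and less RNA per cell cannot be told apart.

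The members differed in level by more than 3 orders of magnitude when both strands of a hairpin are counted. Between hairpins that share the host gene the difference was smaller. Mean CPM of miR-1298 was 114 times that of miR-448-3p, 731 times that of miR-1912-3p and 875 times that of miR-764-5p, the more abundant members of their hairpins. miR-1298 averaged 3546 CPM over the 24 libraries and ranked 42 among all miRNAs. It made up 98.8% of all reads counted on the members. miR-448-3p averaged 31.2 CPM, rank 283, so that there were 114 miR-1298 reads to each miR-448-3p read. The other members were much closer to the detection floor, with means of 4.85 CPM for miR-1912-3p, 4.05 CPM for miR-764-5p, 2.87 CPM for miR-448-5p and 1.53 CPM for miR-764-3p. Read counts of different miRNAs depend on how well each is ligated and amplified in a small RNA library, so these are ratios of reads.

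miR-1298 held a narrow range in the PVN and a wide one in the CEA. In the PVN its level was 2812, 3162 and 2726 CPM in the NC libraries, 2686, 2918 and 2963 in HT, 2794, 2522 and 2788 in HT + EA, and 2665, 2910 and 2764 in HT + SEA. In the CEA it was 3589, 7386 and 2495 CPM in NC, 3242, 3301 and 2195 in HT, 5679, 3744 and 2918 in HT + EA, and 3321, 10629 and 2908 in HT + SEA. One library in each of the CEA NC and HT + SEA groups, both numbered 2, stood far above the rest, and one HT + EA library, numbered 1, stood above the remaining CEA libraries. The highest library exceeded the lowest 1.25-fold in the PVN and 4.84-fold in the CEA, and the SD of log2 CPM within groups was 0.086 and 0.71. At these counts sampling error alone would give an SD of about 0.0081 in the PVN and 0.0061 in the CEA.

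**Figure D1:**
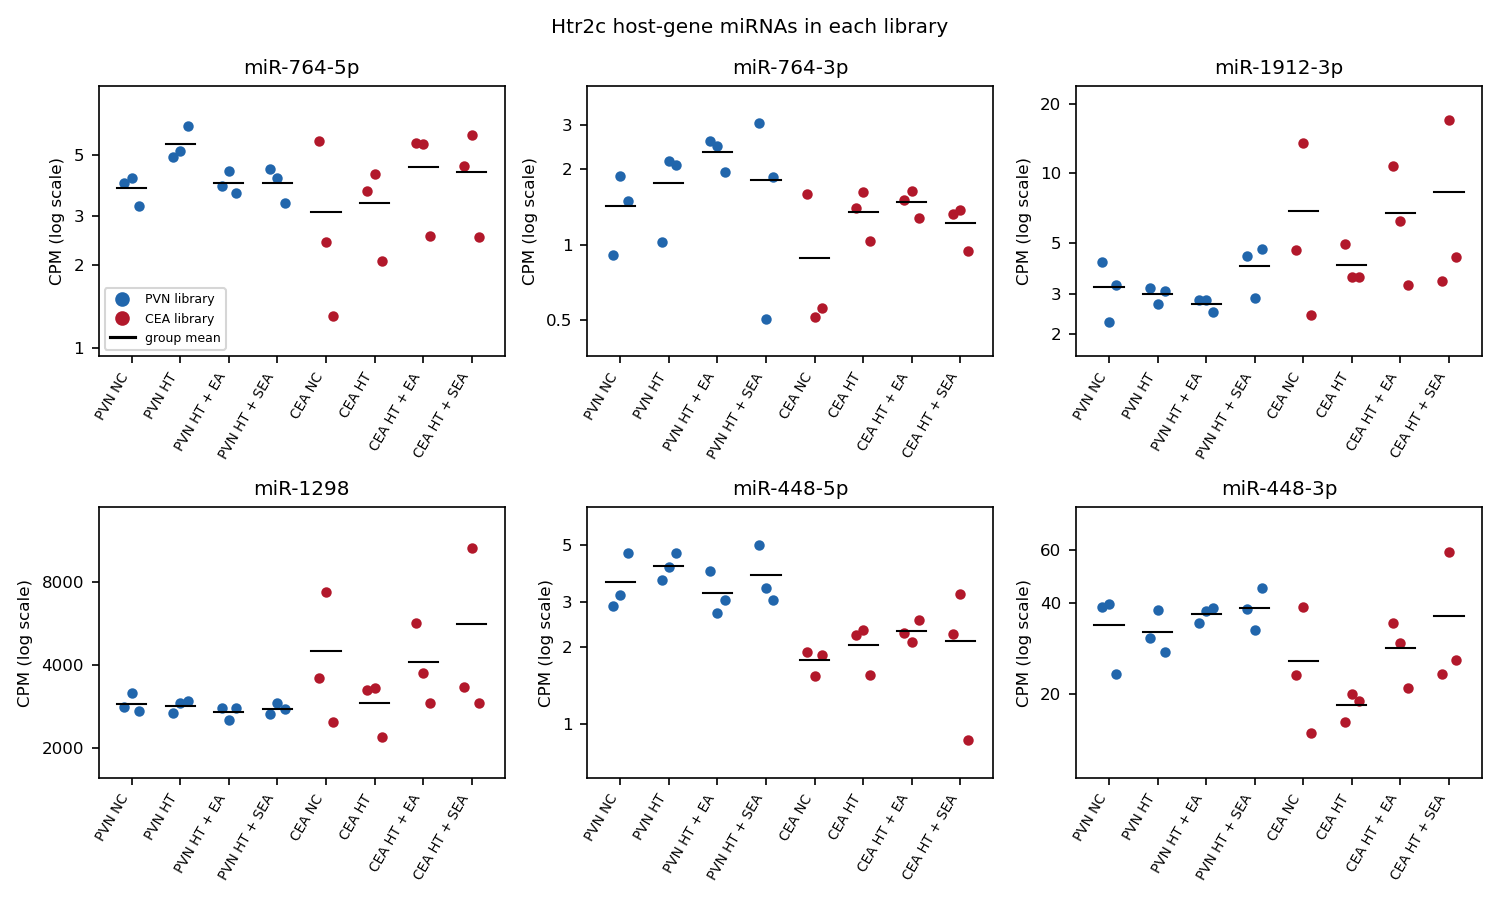
Level of each member in CPM on a log axis (y) in the 3 libraries of each of the 8 groups (x). Points are libraries, blue for PVN and red for CEA, and bars are group means. miR-1298 lies between 2522 and 3162 CPM in the PVN and between 2195 and 10629 CPM in the CEA, where the libraries numbered 2 of NC and HT + SEA are the highest.

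miR-448-3p followed the same libraries in the CEA but not the same difference between the nuclei. In the PVN its level was 38.7, 39.7 and 23.4 CPM in NC, 30.6, 37.9 and 27.5 in HT, 34.3, 37.6 and 38.6 in HT + EA, and 38.1, 32.6 and 44.8 in HT + SEA. In the CEA it was 23.1, 39.0 and 14.8 CPM in NC, 16.2, 19.96 and 19.0 in HT, 34.4, 29.6 and 20.99 in HT + EA, and 23.2, 59.3 and 26.0 in HT + SEA. The highest CEA value belonged to the same HT + SEA library as for miR-1298, and the next to the same NC library, while most other CEA libraries lay below the PVN libraries.

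miR-1912-3p, the nearest upstream neighbour of miR-1298, had its extremes in the same CEA libraries as miR-1298. In the PVN it was 4.10, 2.25 and 3.26 CPM in NC, 3.19, 2.69 and 3.08 in HT, 2.82, 2.80 and 2.50 in HT + EA, and 4.36, 2.88 and 4.68 in HT + SEA. In the CEA it was 4.65, 13.6 and 2.43 CPM in NC, 4.94, 3.55 and 3.55 in HT, 10.7, 6.19 and 3.29 in HT + EA, and 3.42, 17.1 and 4.34 in HT + SEA. The 3 libraries that were highest for miR-1298 were also the 3 highest for miR-1912-3p, in the same order.

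The strands of miR-764 and the 5p strand of miR-448 were not high in both of these CEA libraries. HT + SEA library 2 was the highest of the CEA libraries for miR-764-5p and miR-448-5p too, but NC library 2 was not. miR-764-5p ranged from 3.26 to 6.33 CPM in the PVN (median 4.11) and from 1.31 to 5.89 in the CEA (median 3.98), with 2.42 CPM in CEA NC library 2. miR-764-3p ranged from 0.504 to 3.06 CPM in the PVN (median 1.92) and from 0.514 to 1.64 in the CEA (median 1.35). miR-448-5p ranged from 2.72 to 4.98 CPM in the PVN (median 3.51) and from 0.868 to 3.21 in the CEA (median 2.16). By CPM, CEA NC library 2 was the lowest of the CEA libraries for miR-764-3p, at 0.514 CPM or 7 reads, and was among the lowest for miR-448-5p, at 21 reads.

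Ordered by mean level over the 8 groups, the 4 CEA groups held the upper ranks for miR-1298 and miR-1912-3p, whereas the 4 PVN groups held the upper ranks for miR-448-5p. miR-1298 was highest in CEA HT + SEA (5619 CPM ± 4343, SD, n = 3) and lowest in PVN HT + EA (2701 CPM ± 155, SD, n = 3). miR-448-3p was highest in PVN HT + SEA (38.5 CPM ± 6.13, SD, n = 3) and lowest in CEA HT (18.4 CPM ± 1.94, SD, n = 3). Neighbours in these orders overlapped in their ranges for every member, with the exception of miR-448-5p between PVN HT + EA (3.23 CPM ± 0.632, SD, n = 3) and CEA HT + EA (2.30 CPM ± 0.231, SD, n = 3).

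The nuclei were compared in 1 fit of the 24 libraries that allowed for treatment, to ask whether hairpins of one host gene differ in the same direction between them. In this fit 2 members were lower in the PVN, 2 were higher and 2 did not pass. Of the 1098 miRNAs, 39.9% passed an adjusted p of 0.05 in this comparison (quasi-likelihood test of edgeR, Benjamini-Hochberg adjusted), 20.1% as higher and 19.8% as lower in the PVN, so the 4 of 6 members are to be read against a common event. The median log2 difference was 0.24 over the members and 0.03 over all miRNAs, and a member's range in the PVN overlapped its range in the CEA in each case, as it did for all but 11.6% of miRNAs.

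Marker miRNAs of other cell types differed between the nuclei as well. All 3 neuronal miRNAs were lower in the PVN, with summed levels of 102643 to 116260 CPM against 137326 to 161729 CPM. Most of this sum was miR-9a-5p. miR-124-3p by itself overlapped between the nuclei, at 964 to 1674 CPM in the PVN and 914 to 2021 CPM in the CEA. All 3 oligodendrocyte miRNAs were lower too, with a median log2 difference of -1.06 and sums of 1795 to 3236 CPM against 3904 to 7916 CPM, as were both endothelial strands of miR-126a, at 17489 to 21911 CPM against 23076 to 26669 CPM. For the sums of these lists the libraries of the nuclei did not overlap. Of the 2 red blood cell miRNAs 1 was higher in the PVN, and of the 3 myeloid miRNAs 1 was lower. The part of these cell types in the differences of the members was not tested.

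miR-1298 was lower in the PVN, with 2809 CPM ± 165 (SD, n = 12) against 4284 CPM ± 2466 (SD, n = 12). The log2 difference was -0.62 (SE 0.17, edgeR adjusted p = 0.0024). miR-1912-3p was also lower in the PVN, with a log2 difference of -1.05 (SE 0.25, edgeR adjusted p = 0.00064), at 3.22 CPM ± 0.766 (SD, n = 12) against 6.48 CPM ± 4.72 (SD, n = 12). Without the CEA NC and HT + SEA libraries numbered 2 both were still lower, with log2 differences of -0.30 for miR-1298 and -0.60 for miR-1912-3p and edgeR adjusted p-values of 0.0096 and 0.011. Among the 217 miRNAs called lower in the PVN, the differences of miR-1912-3p and miR-1298 ranked 65 and 119 by size. In HT libraries alone no member was called between the nuclei. There miR-1298 averaged 2856 CPM ± 149 (SD, n = 3) in the PVN and 2913 CPM ± 623 (SD, n = 3) in the CEA.

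Both strands of miR-448, the most distal hairpin, were higher in the PVN. miR-448-5p was higher by 0.78 on the log2 scale (SE 0.17, edgeR adjusted p = 0.00016), at 3.68 CPM ± 0.761 (SD, n = 12) against 2.05 CPM ± 0.584 (SD, n = 12). miR-448-3p was higher by 0.37 (SE 0.14, edgeR adjusted p = 0.039), at 35.3 CPM ± 5.93 (SD, n = 12) against 27.1 CPM ± 12.4 (SD, n = 12). The call for miR-448-3p was a marginal one: of 24 fits with a single library removed, 19 no longer made it, among them the fit without PVN NC library 1 (0.28, edgeR adjusted p = 0.12). Without the 2 high CEA libraries the difference of miR-448-3p was 0.59 (edgeR adjusted p = 2.34e-05).

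The strands of miR-764 did not pass. miR-764-3p differed by 0.54 (SE 0.22, edgeR adjusted p = 0.0504), just short of the threshold, and miR-764-5p by 0.12 (SE 0.19, edgeR adjusted p = 0.65). With the replicate number as a block miR-764-3p passed as higher in the PVN (0.55, edgeR adjusted p = 0.043), which made 5 members called. miR-3552, from the hairpin next to miR-764, was higher in the PVN by 1.12 (SE 0.17, edgeR adjusted p = 1.01e-06). It was chosen after its value was seen.

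**Figure D2:**
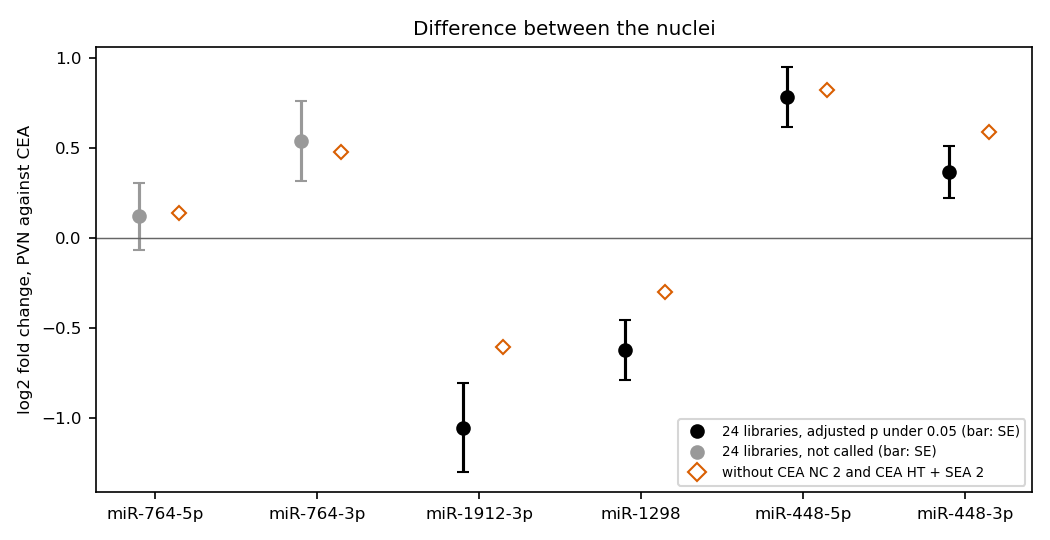
Log2 fold change of the PVN against the CEA (y) for each member in the order of the hairpins (x). Circles are the fit over 24 libraries with bars for the SE, black where the adjusted p was under 0.05, and open diamonds are the fit without CEA NC library 2 and CEA HT + SEA library 2. miR-1912-3p and miR-1298 lie below 0 at -1.05 and -0.62, and the miR-448 strands lie above 0 at 0.78 and 0.37.

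The ratio of miR-1298 to miR-448-3p within each library does not depend on the scaling of the libraries. It was looked at because the 2 levels were seen to differ in opposite directions, so it restates that difference and is given as a description, with no test. There were between 61.6 and 116 miR-1298 reads per miR-448-3p read in the PVN (median 78.1) and between 112 and 199 in the CEA (median 160), a log2 difference of -0.92, or -0.86 without the 2 high CEA libraries. At 179 and 189, those 2 libraries lay inside the range of the other CEA libraries.

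**Figure D3:**
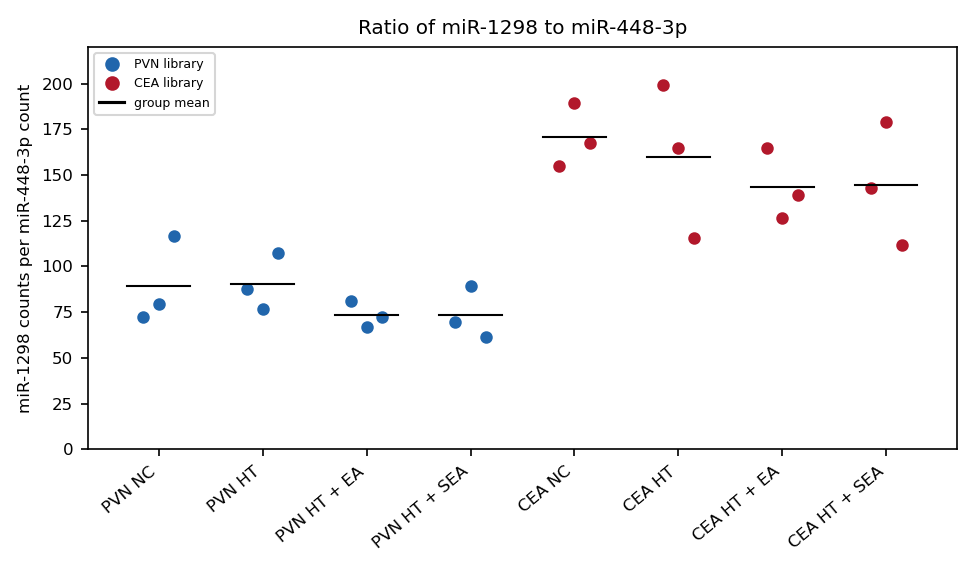
Number of miR-1298 reads per miR-448-3p read (y) in the 3 libraries of each group (x). Points are libraries, blue for PVN and red for CEA, and bars are group means. The PVN libraries lie between 61.6 and 116 and the CEA libraries between 112 and 199.

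A further 3 ratios, chosen in the same way, are also given without a test. miR-1298 to miR-764-5p had a median of 701 in the PVN and 1034 in the CEA, with a log2 difference of -0.73. miR-1298 to miR-1912-3p had medians of 918 and 657, with a difference of 0.31, and miR-448-3p to miR-764-5p had medians of 8.53 and 7.19, with a difference of 0.19.

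The balance of the 2 strands was measured as the share of the 5p strand among the reads of a hairpin. miR-448 was mostly 3p, with a 5p share of 9.77% ± 3.18 (SD, n = 12) in the PVN and 7.78% ± 2.93 (SD, n = 12) in the CEA. miR-764 was mostly 5p, with 70.7% ± 9.50 (SD, n = 12) and 74.6% ± 5.24 (SD, n = 12). Neither share passed the test between the nuclei that permuted libraries within treatments: the log2 difference in 5p to 3p was 0.39 for miR-448 (permutation p = 0.0985, adjusted over the 2 shares 0.197) and -0.23 for miR-764 (permutation p = 0.369, adjusted 0.369). With same-numbered PVN and CEA libraries taken as pairs, a replicate block, the miR-448 difference had an unadjusted p of 0.0415 (permutation test by sign flips), which does not pass when adjusted over the 2 shares (0.083). It was higher in the PVN in 8 of 12 such pairs. Over the 24 libraries the log2 CPM of the 2 miR-448 strands, taken as deviations from the group means, had an r of 0.07, although both lay higher in the PVN.

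How the hairpins moved together among libraries of one nucleus was asked with 20 correlations of log2 CPM over 12 libraries each, with p-values adjusted over the 20. In the CEA, 3 pairs of members passed by r. By rho the same 3 passed and 1 more, miR-764-5p with miR-1298. miR-1298 and miR-1912-3p had an r of 0.95 (permutation p = 4e-05, adjusted 0.0004) and a rho of 0.83 (permutation p = 0.00167, adjusted 0.0167). miR-448-3p and miR-1298 had an r of 0.92 (permutation p = 0.0001, adjusted 0.000667) and a rho of 0.83 (permutation p = 0.00136, adjusted 0.0167). miR-448-3p and miR-1912-3p had an r of 0.91 (permutation p = 1e-05, the smallest that 100000 permutations can give, adjusted 0.0002) and a rho of 0.76 (permutation p = 0.00522, adjusted 0.0348).

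These relations leaned on few libraries. For all 3 pairs the 2 libraries farthest from the median were the CEA NC and HT + SEA libraries numbered 2, and without them r was 0.86, 0.75 and 0.79, with permutation p-values of 0.00281, 0.0119 and 0.00616. With the 2 farthest libraries left out of each of the 20 pairs, no pair passed at an adjusted p of 0.05, the adjusted values being 0.0562, 0.0791 and 0.0616. With these CEA libraries numbered 2 left out throughout, a choice made after the data were seen, miR-1298 with miR-1912-3p and miR-448-3p with miR-1912-3p passed and miR-448-3p with miR-1298 did not (adjusted permutation p = 0.0405, 0.0433 and 0.0608). Taken as deviations from the treatment means, r was 0.95, 0.93 and 0.95 (adjusted permutation p = 0.0473 for each).

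No pair with miR-764-5p passed by r, and the pair with miR-1298 passed by rho. In the CEA its r was 0.51 with miR-448-3p, 0.50 with miR-1298 and 0.48 with miR-1912-3p (adjusted permutation p = 0.211, 0.211 and 0.228), with rho at 0.54, 0.72 and 0.55 (adjusted permutation p = 0.188, 0.0487 and 0.188). CEA NC library 2, high for the other hairpins, was low for miR-764-5p, and without it and HT + SEA library 2 the r with miR-1298 was 0.80 (adjusted permutation p = 0.0405). Without the 2 CEA libraries farthest in miR-764-5p, those numbered 3 of HT and NC, it was 0.28.

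In the PVN none of the pairs passed by r or rho. There miR-1298 and miR-1912-3p had an r of -0.41 (permutation p = 0.184, adjusted 0.306) and miR-448-3p and miR-1298 an r of 0.04 (permutation p = 0.912, adjusted 0.912). Within groups the SD of log2 CPM of miR-1912-3p was 0.30 in the PVN, where counting error alone would give about 0.24, and 0.99 in the CEA. The difference in correlation between the nuclei was not tested.

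**Figure D4:**
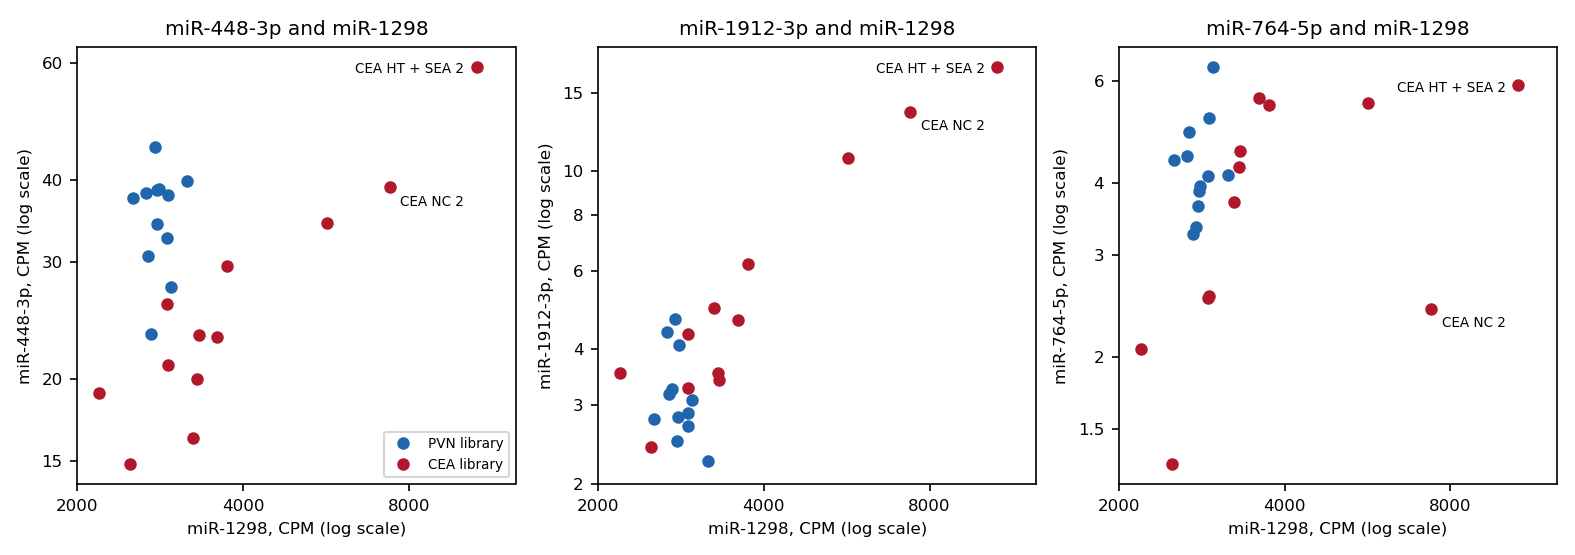
Levels of miR-448-3p, miR-1912-3p and miR-764-5p (y) against miR-1298 (x), all in CPM on log axes, with 1 point per library, blue for PVN and red for CEA. In the CEA miR-448-3p and miR-1912-3p are higher where miR-1298 is higher, up to the labelled libraries (r of 0.92 and 0.95), whereas miR-764-5p is low in CEA NC library 2 at 2.42 CPM.

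Because Htr2c is known from the choroid plexus, miRNAs of choroid plexus and ependyma were set beside the members. Of the 12 listed, 10 were in the table: both strands of miR-204, miR-211, miR-34b and miR-34c, and the 5p strands of miR-449a and miR-449c. miR-204 and miR-211 are choroid plexus miRNAs that other tissues also express. miR-34b, miR-34c and miR-449 were listed for ciliated cells and need not be confined to them. The summed level of the 10 was between 3089 and 4656 CPM in the PVN and between 617 and 1981 CPM in the CEA. Most of that sum was a single strand, miR-34c-5p, with means of 2821 and 671 CPM. The choroid plexus miR-204-5p averaged 638 CPM in the PVN and 502 CPM in the CEA. Against the CEA, 5 of the 10 were higher in the PVN, 1 was lower and 4 were not called, with a median log2 difference of 0.26. The strands of miR-34b and miR-34c made up 4 of the 5, at 1.98 to 2.16 on the log2 scale, while miR-211-5p, at 0.425 and 0.766 CPM on average, was the one that was lower.

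miR-204-5p was set beside the members because it was seen to be high in the same 2 CEA libraries. It was 744 CPM in NC library 2 and 884 CPM in HT + SEA library 2, and between 374 and 530 CPM in the other CEA libraries. Its r over the 12 CEA libraries was 0.92 with miR-1298, 0.88 with miR-448-3p, 0.85 with miR-1912-3p and 0.28 with miR-764-5p, and without the 2 libraries 0.63, 0.64, 0.47 and 0.42 in turn. Because of how miR-204-5p was chosen, these are a description with no test. The summed list was set against 4 members, miR-448-3p, miR-764-5p, miR-1298 and miR-1912-3p. Of these it passed with miR-448-3p in the CEA, at an r of 0.73 (permutation p = 0.00651, adjusted 0.0325) and a rho of 0.71 (permutation p = 0.0122, adjusted 0.0487), and that r was 0.51 without the 2 farthest libraries (permutation p = 0.133). Taken as deviations from the treatment means it was 0.61 and did not pass (adjusted permutation p = 0.329), and in the PVN the r of this pair was 0.04 (adjusted permutation p = 0.912). With miR-1298 the r of the summed list was 0.65 (permutation p = 0.0197, adjusted 0.0789). Whether miR-204-5p and the summed list differ in these correlations was not tested. miR-211-3p and miR-449c-5p were at or near 0 reads in the CEA. What part tissue of the choroid plexus has in the members' levels was not tested.

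Likeness was also measured over all 24 libraries, as the r of deviations from the 8 group means, among 364 known miRNAs with a mean of at least 10 CPM. For miR-1298 the most alike were miR-204-5p (0.89), miR-448-3p (0.84), miR-204-3p (0.82), miR-674-3p (0.67) and miR-383-5p (0.65). For miR-448-3p they were miR-1298 (0.84), miR-204-3p (0.77), miR-204-5p (0.74), miR-3544 (0.62) and miR-383-5p (0.61). For miR-1912-3p they were miR-1298 (0.88), miR-204-3p (0.85), miR-448-3p (0.82), miR-204-5p (0.79) and miR-383-5p (0.74). So these 3 strands shared miR-204 and miR-383-5p among their nearest miRNAs, and these points share their libraries and depth.

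In the PVN alone much of this likeness was weaker or had the other sign. Over the 12 PVN libraries alone the r of miR-1298 was 0.26 with miR-204-5p, 0.25 with miR-448-3p, -0.44 with miR-204-3p, 0.64 with miR-674-3p and -0.62 with miR-383-5p. That of miR-1912-3p with miR-1298 was -0.68 there, against 0.95 over the 12 CEA libraries, whereas that of miR-1912-3p with miR-383-5p was 0.84 in the PVN and 0.73 in the CEA. Within PVN groups the SD of log2 CPM was 0.086 for miR-1298. It was 0.30 for miR-1912-3p, where counting error alone would give about 0.24. The PVN values of r thus cover a narrow range and are open to counting error. The 5p strand of miR-448 did not share the neighbours of miR-1298 and miR-1912-3p. Its 5 most alike, named here after their values were seen, were miR-411-5p (0.68), miR-187-3p (0.67), miR-369-5p (0.67), miR-3578 (0.67) and miR-212-5p (0.67), with miR-204-5p at rank 23 and miR-204-3p at rank 76.

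miR-764-5p had other neighbours. Its 5 most alike were miR-148a-5p (0.79), miR-7b (0.78), miR-489-5p (0.76), miR-653-5p (0.73) and miR-653-3p (0.69), with miR-1298 at rank 26 (0.53). Over the 12 PVN libraries alone the r was 0.62, 0.54, 0.64, -0.19 and 0.37 in turn, so that with miR-653-5p had the other sign. The SD of log2 CPM of miR-764-5p within PVN groups was 0.18, below the 0.21 that counting error alone would give. miR-489 and miR-653 are hairpins of another receptor gene, Calcr, the calcitonin receptor. The 4 miRNAs of the Calcr intron were all higher in the PVN, with a median log2 difference of 3.18 and summed levels of 403 to 657 CPM against 14.8 to 104 CPM in the CEA. Of the 4 miRNAs in the intron of Gabre, a GABA receptor subunit gene, 2 were higher in the PVN and 2 were not called, with a median of 1.996. The 2 not called, miR-224-3p and miR-452-3p, had 0 to 6 reads per library, too few to be called readily in either direction. The Htr2c members, with 2 higher and 2 lower, were divided where the Calcr and Gabre lists were not, a contrast given here as counts without a test. The choroid plexus and ependyma list, with 5 higher and 1 lower, was divided as well.

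Treatments were compared within each nucleus on the 6 libraries of the groups concerned, to ask whether surgery shifted the members and whether EA shifted them again. A miRNA was called at an unadjusted p under 0.05 in edgeR's quasi-likelihood test, the threshold the study used, and no member reached an adjusted p of 0.05 in any of these comparisons. At that adjusted p, edgeR's test called 3.25%, 1.02%, 0.2% and 2.72% of all miRNAs in the PVN for HT against NC, HT + EA against HT, HT + SEA against HT and HT + EA against HT + SEA, and 0.201%, 0.0996%, 0.4% and 0.0% in the CEA. The 3 comparisons against HT in a nucleus share the HT libraries and are not independent.

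In the PVN no member was called for HT against NC, where 10.9% of miRNAs were called, for HT + EA against HT (11.4%) or for HT + SEA against HT (8.3%). The log2 difference of miR-1298 was -0.057 (SE 0.13) for HT against NC, -0.046 (SE 0.10) for HT + EA against HT and -0.024 (SE 0.10) for HT + SEA against HT. The member that stood out in the PVN without a call was miR-764-5p. It was 3.95, 4.12 and 3.26 CPM in NC, 4.89, 5.17 and 6.33 in HT, 3.86, 4.37 and 3.64 in HT + EA, and 4.44, 4.10 and 3.35 in HT + SEA. The HT libraries lay above the libraries of each other PVN group without overlap, which 12.8% of miRNAs showed for HT against NC, 15.7% for HT + EA against HT and 10.3% for HT + SEA against HT.

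The log2 difference of miR-764-5p was 0.49 (SE 0.31) for HT against NC, -0.43 (SE 0.25) for HT + EA against HT and -0.45 (SE 0.26) for HT + SEA against HT, with unadjusted p-values of 0.116, 0.093 and 0.091 in edgeR's test. These rest on 24 to 70 reads per library, where counting error is of the size of the spread seen. HT + EA and HT + SEA differed by -0.015 (SE 0.23). For HT + EA against HT + SEA, where 7.14% of miRNAs were called and 4.53% as lower with EA, miR-1912-3p was the one member called. Its HT + EA libraries, between 2.50 and 2.82 CPM, lay below the HT + SEA libraries, between 2.88 and 4.68 CPM, with a log2 difference of -0.56 (SE 0.25, unadjusted p = 0.024, adjusted 0.48 in edgeR's test). Non-overlap was seen for 11.3% of miRNAs in this comparison, and with a single library removed the call was lost in 3 of 6 fits: without HT + EA library 3 (-0.49), HT + SEA library 1 (-0.50) or HT + SEA library 3 (-0.41). DESeq2 did not make it either (-0.55, unadjusted p = 0.12).

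Marker miRNAs of other cell types also moved in the PVN comparisons. miR-128-3p, a neuronal miRNA, and miR-338-3p, an oligodendrocyte one, followed the direction of miR-764-5p, and both were called each time. The log2 differences of miR-128-3p were 0.52 for HT against NC, -0.39 for HT + EA against HT and -0.33 for HT + SEA against HT, and those of miR-338-3p were 0.57, -0.43 and -0.38. As whole lists, 1 of 3 neuronal miRNAs was called in each of these comparisons, and 1, 3 and 1 of 3 oligodendrocyte miRNAs, with 1 of the 3 higher for HT + EA against HT. The other 2 neuronal miRNAs were not called: miR-124-3p was at 0.081, 0.039 and 0.16 in turn, and miR-9a-5p at -0.085, 0.022 and 0.0084. Among oligodendrocyte miRNAs, miR-219a-2-3p was at 0.10, 0.29 and 0.13, and miR-219a-5p at 0.073, -0.94 and -0.27. The myeloid miR-223-3p went the other way, at -5.62, 2.997 and 1.82, while the other 2 myeloid miRNAs were not called. For HT + SEA against HT, only HT + SEA library 1, at 11.1 CPM, stood far above the HT libraries, which ran from 1.02 to 1.54 CPM. HT + SEA libraries 2 and 3 were at 1.58 and 1.49 CPM. Of the 2 red blood cell miRNAs, miR-451-5p was called as lower for HT against NC (-0.54) and miR-144-3p as lower for HT + EA against HT (-0.98, edgeR adjusted p = 0.011). Of the choroid plexus and ependyma miRNAs, 1 of 10 was called as higher and 2 as lower for HT against NC, with a median log2 difference of -0.34, the 2 being the strands of miR-34c. None of 9 tested was called for HT + EA against HT, and 2 of 10, the same strands, were higher for HT + SEA against HT. Neither endothelial strand was called.

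In the PVN comparison of EA with SEA, where miR-1912-3p was lower with EA, miR-219a-5p of oligodendrocytes (-0.70, edgeR adjusted p = 7.44e-07), miR-144-3p of red blood cells (-0.89, edgeR adjusted p = 4.19e-05) and the myeloid miR-142-3p (-0.28) were called as lower too, and miR-223-3p as higher (1.153, edgeR adjusted p = 3.20e-07). These were 1 of 3 oligodendrocyte, 1 of 2 red blood cell and 2 of 3 myeloid miRNAs, and the others were not called: miR-219a-2-3p was at 0.13, miR-338-3p at -0.084, miR-451-5p at 0.029 and miR-142-5p at 0.062. For miR-223-3p the ranges overlapped, with 10.3, 8.98 and 11.9 CPM in HT + EA and 11.1, 1.58 and 1.49 CPM in HT + SEA. The p-values of miRNAs that vary this much between replicates are too small in this fit. No neuronal or endothelial miRNA was called. Of the 10 choroid plexus and ependyma miRNAs, 1 was called as lower. What part these cell types have in the members' values in the PVN was not tested.

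**Figure D5:**
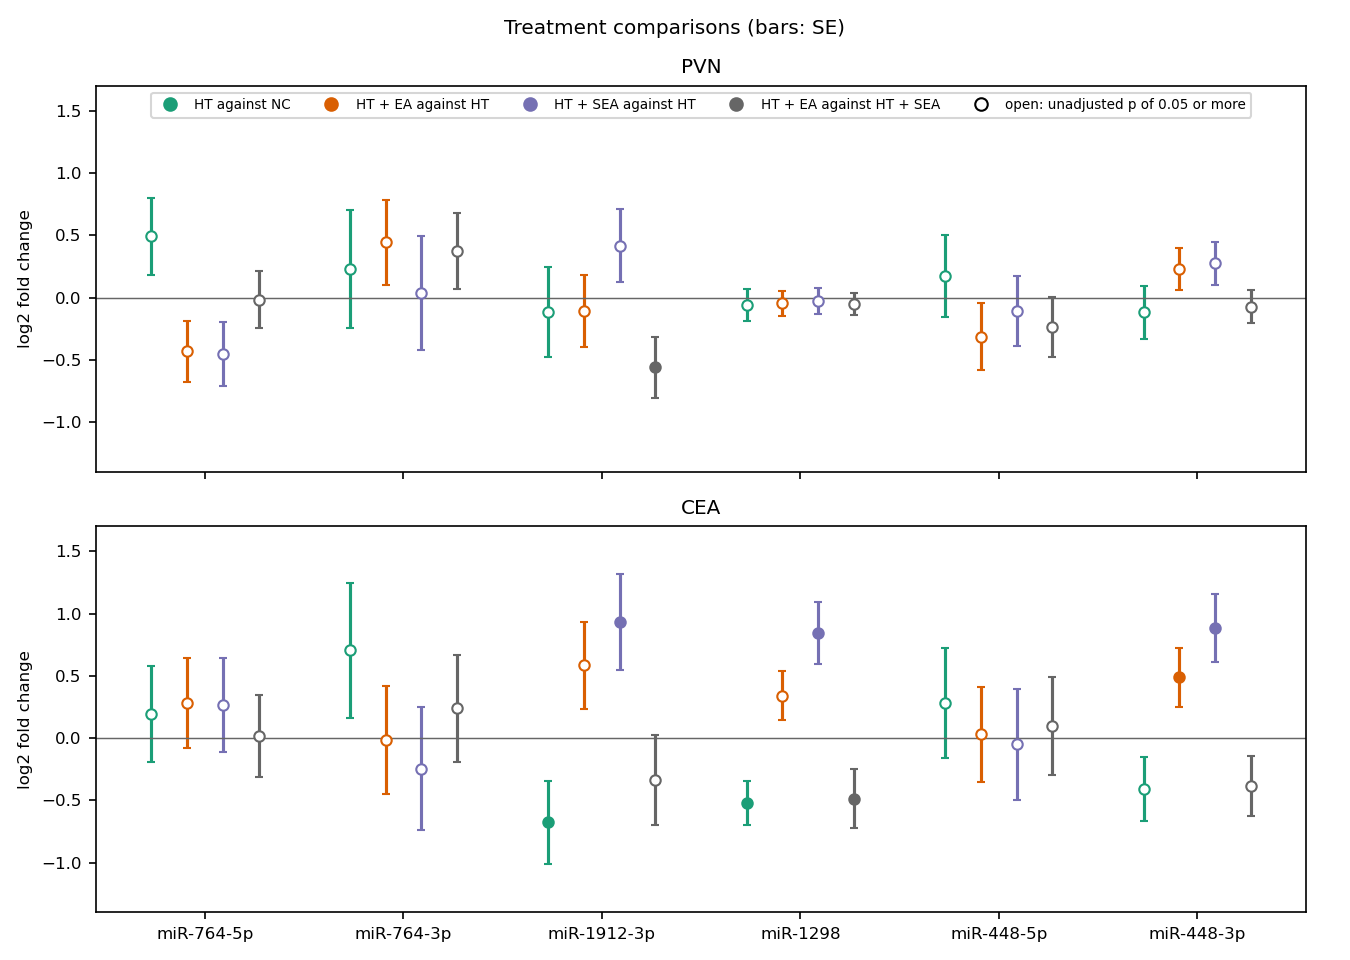
Log2 fold change of each member (x) in 4 treatment comparisons (colours), in the PVN (upper panel) and the CEA (lower panel), with bars for the SE. Filled points had an unadjusted p under 0.05. In the PVN all points of miR-1298 lie close to 0, and in the CEA the filled points belong to miR-1912-3p, miR-1298 and miR-448-3p.

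In the CEA the calls fell on miR-1298, miR-1912-3p and miR-448-3p, and each was lost on leaving out at least 1 single library. For HT against NC, where 3.82% of miRNAs were called and 2.01% as lower, miR-1298 and miR-1912-3p were called as lower in HT, with log2 differences of -0.52 (SE 0.17, unadjusted p = 0.0029) and -0.68 (SE 0.34, unadjusted p = 0.044) in edgeR's test. The ranges of the groups overlapped for both. Without CEA NC library 2 the differences were 0.044 and 0.30, in the other direction and not called. Without HT library 3 neither was called (-0.26 and -0.48), and without HT library 2 miR-1912-3p was not (-0.49). Same-numbered libraries of these 2 groups deviated together at each number. In the fit with a replicate block miR-1298 was still called (-0.42, unadjusted p = 0.0059 in edgeR's test) and miR-1912-3p was not (-0.40, unadjusted p = 0.15 in edgeR's test). DESeq2 and edgeR with its robust spread estimate called 0 members here.

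For HT + SEA against HT, where 4.7% of miRNAs were called and 2.0% as higher, miR-1298, miR-1912-3p and miR-448-3p were called as higher with SEA, by 0.84 (SE 0.25, unadjusted p = 0.0012), 0.93 (SE 0.38, unadjusted p = 0.018) and 0.89 (SE 0.27, unadjusted p = 0.0018) in edgeR's test. Without HT + SEA library 2 the differences were -0.034, -0.19 and 0.31, and none was called. Without HT + SEA library 1 miR-1298 and miR-1912-3p were not called either (1.10 and 1.29), nor was miR-1912-3p without HT library 3 (0.77). DESeq2 and the robust spread estimate each called 1 of the 3, miR-448-3p. For miR-448-3p the 3 HT + SEA libraries, from 23.2 to 59.3 CPM, all lay above the 3 HT libraries, from 16.2 to 19.96 CPM, as was the case for 6.41% of miRNAs.

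For HT + EA against HT, where 5.28% of miRNAs were called and 1.79% as higher, miR-448-3p was the one member called, as higher with EA by 0.49 (SE 0.23, unadjusted p = 0.045, adjusted 0.90 in edgeR's test). Its HT + EA libraries, from 20.99 to 34.4 CPM, lay above the HT libraries without overlap, which 9.36% of miRNAs showed. With a single library removed the call was lost in 4 of 6 fits: without HT library 2 (0.46), HT library 3 (0.46), HT + EA library 1 (0.29) or HT + EA library 2 (0.44). For HT + EA against HT + SEA, where 2.24% were called and 1.46% as lower with EA, miR-1298 was called as lower with EA at a log2 difference of -0.49 (SE 0.24, unadjusted p = 0.044 in edgeR's test), with overlapping ranges. Without HT + SEA library 2 the difference was 0.40 in the other direction (unadjusted p = 0.022 in edgeR's test). The call was also lost without HT + EA library 2 (-0.41), HT + EA library 3 (-0.30) or HT + SEA library 1 (-0.76), and DESeq2 did not make it.

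miRNAs of other cell types moved in the same CEA comparisons. Of the 10 choroid plexus and ependyma miRNAs, 3 were called as lower for HT against NC, with a median log2 difference of -0.21, and 5 as higher for HT + SEA against HT, with a median of 0.85. Their summed level was 861 to 1915 CPM in NC, 617 to 1460 in HT, 1153 to 1383 in HT + EA and 950 to 1981 in HT + SEA. The red blood cell miRNAs miR-451-5p and miR-144-3p were both called as lower for HT against NC and for HT + EA against HT + SEA, and summed to between 95.9 and 178 CPM in NC, 52.2 and 133 in HT, 86.3 and 129 in HT + EA, and 111 and 221 in HT + SEA. miR-451-5p was called as higher for HT + SEA against HT, by 0.66 (unadjusted p = 0.0053 in edgeR's test). For HT + EA against HT + SEA 1 of the 10 choroid plexus and ependyma miRNAs, miR-219a-5p of oligodendrocytes (-0.51) and miR-142-3p of myeloid cells (-0.41) were called as lower as well, and miR-219a-5p was also called as lower for HT against NC (-0.43). For HT + EA against HT none of the choroid plexus and ependyma miRNAs was called, with a median log2 difference of 0.35, while 1 of the 2 red blood cell miRNAs, 1 of the 3 neuronal and 1 of the 3 oligodendrocyte miRNAs were called as lower.

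miR-223-3p, a miRNA of neutrophils and other myeloid cells, passed the adjusted p in the CEA where no member did. It was 1.27, 10.7 and 10.8 CPM in NC, 0.906, 0.912 and 0.886 in HT, 1.24, 12.5 and 10.53 in HT + EA, and 18.99, 1.38 and 1.74 in HT + SEA. It was lower for HT against NC, by a log2 difference of -2.98 (edgeR adjusted p = 6.97e-11), and higher for HT + EA against HT by 2.997 (edgeR adjusted p = 0.00037) and for HT + SEA against HT by 2.92 (edgeR adjusted p = 0.00085). It was high in CEA NC library 2, as miR-1298 was, but not in HT + SEA library 2. The other 2 myeloid miRNAs, the strands of miR-142, were not called in these 3 comparisons. The part of these cell types in the differences of the members was not tested.

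Whether the effect of a treatment differed between the nuclei was tested as an interaction over 12 libraries. For the effect of HT, where 4.98% of miRNAs were called at an unadjusted and 0.188% at an adjusted p of 0.05, no member was called, and the difference of the effect, PVN minus CEA, was 0.38 (SE 0.25) on the log2 scale for miR-1298, 0.48 (SE 0.51) for miR-1912-3p and 0.21 (SE 0.35) for miR-448-3p. For the effect of EA, where 1.9% and 0.0% were called, no member was called either, and the differences ran from -0.76 (SE 0.45) for miR-764-5p to 0.40 (SE 0.53) for miR-764-3p. With errors of this size the interactions do not show that the members responded alike in the 2 nuclei.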

How the data were processed

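The authors deposited raw counts of reads per miRNA for 24 libraries, made with a NEBNext small RNA kit after removal of adapter, ambiguous and low-quality reads. The labels name HISAT2, featureCounts and the human build GRCh38 (hg38), the study's methods name a rat assembly, and the counting of miRNAs and of reads that match several is not given in the sources used here. A further 24 columns with scaled values were not used. Groups follow the titles in the labels. Counts were fitted over the whole table with edgeR 4.0.16 (limma 3.58.1, R 4.3.3; TMM, glmQLFit and glmQLFTest, miRNAs with at least 1 count in the libraries compared), called at an unadjusted p of 0.05 for treatments and an adjusted p of 0.05 between nuclei. Ratios, strand shares and correlations used log2 CPM after adding 0.5 to counts, with 100000 permutations for strand shares and correlations (Python 3.11.15, scipy 1.17.1, numpy 2.4.6, pandas 2.3.3, matplotlib 3.10.9). Named besides the members are miRNAs of the same gene, the 5 most alike each of miR-448-3p, miR-764-5p, miR-1298 and miR-1912-3p, and the listed marker miRNAs. miR-153-3p, miR-3552 and the 5 most alike of miR-448-5p fall outside this rule and were chosen with the data in view. Members and lists were chosen with earlier results of these data known. The fits were tested on simulated counts, where 71% of miRNAs changed by 0.75 on the log2 scale were called at an unadjusted p of 0.05 for HT against NC in the PVN. Only better-counted miRNAs were changed, and no treatment comparison within the CEA was simulated. The simulated spread was the one edgeR estimates from these data, so the simulation cannot show whether that spread is too small. Alternatives were DESeq2 1.42.0, other scalings and filters, a robust spread estimate, all groups of a nucleus in 1 fit, a block of the replicate number, and leaving out each library. Nothing says whether same-numbered libraries share an animal. Their deviations from the group means, over 366 miRNAs, correlated above 0.1 at every number in 5 of 12 pairings of groups: HT + EA with HT in the PVN, HT with NC in the CEA, and the PVN with the CEA in NC, HT + EA and HT + SEA, but not in HT (r from -0.30 to 0.65 over all pairings). The replicate block is therefore given beside results it changes in HT against NC in the CEA and between the nuclei. It changed no member's call for HT + EA against HT in the PVN. The p-values measure the spread between these libraries. In every treatment fit the prior degrees of freedom of the spread exceeded the 4 from the libraries: they were 23.3 to 57.5 in 5 fits, 478 in the PVN and without limit in the CEA for HT against NC, and without limit in the PVN comparison of EA with SEA. The interactions had 159 for HT and 17.9 for EA against 8. The p-values of miRNAs that vary between replicates as the CEA members do are therefore too small in these fits.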

Additional observations from a re-analysis of the deposited data

How the results depend on the processing

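The members called between the nuclei (4 in the fit over 24 libraries) numbered 0 in HT libraries alone and 2 each in HT + EA and HT + SEA libraries alone, and 3 to 4 on leaving out 1 library. Within treatments 257, 203, 266 and 243 miRNAs in all were called (NC, HT, HT + EA, HT + SEA) against 438, and 418 to 438 without 1 library, fewer libraries being in the within-treatment fits. miR-764-5p then lay lower in the PVN, by -0.21 in HT + EA and -0.16 in HT + SEA libraries.

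With filterByExpr 65 miRNAs were called for HT against NC in the PVN (107 without it), 47 for HT + SEA against HT (83) and, in the CEA, 7 for HT against NC (38), 22 for HT + EA against HT (53), 11 for HT + SEA against HT (47) and 9 for HT + EA against HT + SEA (23). The interactions of HT and EA gave 12 (53) and 5 (20). Members called were 1 for HT + EA against HT in the PVN and 0, 0, 1 and 0 in these CEA comparisons in turn. DESeq2 called 51 for HT + SEA against HT and, against 71, 47 for HT + EA against HT + SEA, both PVN, 7, 26, 21 and 8 in the CEA, and 13 and 6 for the interactions, with 0 members called for the second of these and, in the CEA, 0 for HT against NC, 1 for HT + SEA against HT and 0 for HT + EA against HT + SEA. With DESeq2's size factors in edgeR the CEA had 1 member called for HT against NC and 0 for HT + EA against HT + SEA. With library totals it was, in the CEA, 3 for HT + EA against HT and 0 for HT + EA against HT + SEA, with 1 for each interaction. In the CEA the robust spread estimate left 0 members for HT against NC, 1 for HT + SEA against HT and 0 for HT + EA against HT + SEA. With all 12 libraries of a nucleus HT + EA against HT + SEA gave 38 miRNAs in the PVN and 15 in the CEA, with 0 members in both, and 0 members for HT against NC and HT + EA against HT in the CEA. The cause of these changes was not tested.

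Leaving out 1 library gave 80 to 108, 83 to 137, 25 to 94 and 62 to 86 miRNAs in the PVN comparisons, in the order HT against NC, HT + EA against HT, HT + SEA against HT and HT + EA against HT + SEA, and 18 to 66, 25 to 70, 17 to 58 and 15 to 37 in the CEA. Members called were 0, 0, 0 and 0 to 1 in the PVN, and 0 to 4, 0 to 3, 0 to 3 and 0 to 3 in the CEA. For the interactions it gave 34 to 74 and 14 to 50 miRNAs, with 0 to 1 and 0 to 3 members. Ranges in the CEA for HT against NC were -0.75 to 0.044 for miR-1298, -1.02 to 0.30 for miR-1912-3p and -0.62 to 0.036 for miR-448-3p. For HT + SEA against HT they were -0.034 to 1.14, -0.19 to 1.29 and 0.31 to 1.11, and for HT + EA against HT + SEA -0.80 to 0.40, -0.85 to 0.79 and -0.63 to 0.20.

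With the replicate number as a block, called miRNAs or members changed by over 1.5 times in 3 CEA comparisons: 31 miRNAs were called for HT + SEA against HT in the CEA, 1 member for HT against NC and 0 for HT + EA against HT. The 5p share of miR-448 then had an unadjusted p of 0.0415 (0.39, sign flips over same-numbered pairs, a permutation test). Of the 20 correlations, 4 passed in the CEA and 0 did without the 2 farthest libraries. Depth limits miR-764-3p most, with 6 to 40 reads per library.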
